A study of Mus musculus with 5 samples.

Results

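Semaphorins are secreted or membrane-bound ligands that share a sema domain, plexins are the receptors that carry their signal into the cell, and neuropilins are co-receptors that bind the secreted class 3 semaphorins. The family was taken as all genes whose platform symbol names a semaphorin of class 3 to 7, a plexin of class A to D, or Nrp1 or Nrp2. This gave 31 members among 23185 named genes: 20 semaphorins, 9 plexins and 2 neuropilins, each measured by 1 probe set. They were measured in 5 single-cell clones of Ocy454, a mouse osteocytic cell line. Clones 12H and 15H carry the label high SOST, and clones 4L, 9L and 24L the label low SOST. All 5 are untreated clones of the same line, cultured for 7 days at 37 °C, with 1 array each, and were picked from 37 clones screened for Sost, the gene of the Wnt inhibitor sclerostin. A clone is a single lineage, so what differs between single clones and what goes with the SOST label can be told apart only by the spread within 2 and 3 clones.

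Class 3 semaphorins act mainly by binding a neuropilin, which brings in a class A plexin or plexin D1, and plexins then act on small GTPases and the cytoskeleton to repel or steer cell processes. Sema3e is the exception, since it can bind plexin D1 without a neuropilin. Classes 4 to 6 are transmembrane proteins and Sema7a is held by a lipid anchor. In bone, Sema3a made by cells of the osteoblast lineage is known to restrain osteoclast formation and favour osteoblast differentiation, while Sema4d made by osteoclasts restrains osteoblasts through plexin B1.

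Values are expression on the log2 scale after RMA, a method that brings arrays to a common distribution, so a difference of 1 is 2-fold. Levels can be compared between clones for a gene, but not between genes. Array medians were 4.04 to 4.08. With 1 array a clone, precision rests on the number of clones. Sost gave 4.08 (12H), 3.92 (15H), 3.78 (4L), 3.89 (9L) and 3.91 (24L), a difference of 0.14 (SE 0.07, limma adjusted p = 0.737), so the labelled split showed little in Sost on these arrays and the clones are called by their labels throughout. Of 8 osteocyte markers, Dkk1, Dmp1, Pdpn and Phex reached 6 in a clone, with differences of 3.78 (Dkk1), 3.86 (Dmp1), 3.90 (Phex) and, the other way, -0.92 (Pdpn), of which none passed the test over all genes, whereas Mepe and Fgf23 stayed at or under the 95th percentile of 1354 olfactory and vomeronasal receptor genes, which lay between 3.37 and 3.56 over the clones and serves here as a level of genes that are not expressed. The mean level of the 8 osteocyte markers was 5.29 to 5.33 in the high-SOST clones and 3.90 to 4.10 in the low-SOST clones. That of 6 measured osteoblast markers was 10.0 to 10.4 and 5.81 to 8.93. Clone 4L alone gave the low end of the last range. It read 2.24 for Ibsp and 2.68 for Sp7, both under the receptor-gene level. Ibsp read 9.56 in 9L and 8.35 in 24L, and Sp7 read 7.05 in 24L and higher in 9L. Alpl read 6.21 in 4L, 10.9 in 9L and 10.4 in 24L. For Bglap 24L was the lowest, at 3.45 against 3.74 in 4L. The part of these lists in the differences below was not tested. Of 8 neuronal, 8 endothelial and 6 measured lymphocyte markers, 0 reached 6 in any clone. Of 8 macrophage and osteoclast markers, Cd68 and Ctsk did so, and the list mean was 3.71 to 3.86 in the high-SOST clones and 3.38 to 3.80 in the low-SOST clones.

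Promoters are shown for 4 members: Sema3a, Sema3c and Sema3d, class 3 ligands on chromosome 5 that read lower in the high-SOST clones, and Nrp2, a co-receptor that read higher. These let the shared and differing sequence be seen beside the values. Each line gives the 250 bases before a RefSeq start site (build GRCm38.p6, 5′ to 3′ on the gene's strand, all on the plus strand). Capitals mark matches on either strand to the RUNX letters TGTGGT, the GC box GGGCGG, the TATA box TATAAA or the AP-1 letters TGANTCA. They also mark the TCF/LEF letters CTTTGAT and the MEF2 letters, taken loosely as CTA and TAG with any 4 bases between. Overlapping GC boxes run together.
Sema3a, chr5:13396534-13396783: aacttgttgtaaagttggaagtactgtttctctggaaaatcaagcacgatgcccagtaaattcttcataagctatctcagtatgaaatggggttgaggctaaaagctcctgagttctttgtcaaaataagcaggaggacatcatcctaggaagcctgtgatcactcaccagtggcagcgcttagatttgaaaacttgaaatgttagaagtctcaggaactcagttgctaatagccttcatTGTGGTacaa
Sema3c, chr5:17574566-17574815: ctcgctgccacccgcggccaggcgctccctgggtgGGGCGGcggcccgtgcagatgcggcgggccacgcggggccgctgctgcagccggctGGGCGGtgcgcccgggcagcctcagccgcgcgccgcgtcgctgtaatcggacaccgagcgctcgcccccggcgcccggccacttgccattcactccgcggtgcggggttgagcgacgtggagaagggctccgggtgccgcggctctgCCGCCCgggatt
Sema3d, chr5:12382916-12383165: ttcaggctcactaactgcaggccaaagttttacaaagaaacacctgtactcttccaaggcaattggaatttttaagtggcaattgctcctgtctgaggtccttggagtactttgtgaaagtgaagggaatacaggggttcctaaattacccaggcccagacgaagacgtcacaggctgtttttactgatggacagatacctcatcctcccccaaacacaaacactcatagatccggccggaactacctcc
Nrp2, chr1:62703067-62703316: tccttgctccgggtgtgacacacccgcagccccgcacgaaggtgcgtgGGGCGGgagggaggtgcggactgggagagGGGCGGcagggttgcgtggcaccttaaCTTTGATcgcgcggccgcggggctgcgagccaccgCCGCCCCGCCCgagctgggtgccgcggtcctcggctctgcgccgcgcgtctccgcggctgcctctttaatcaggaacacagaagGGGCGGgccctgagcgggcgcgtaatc

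The 4 windows differed in G and C content, and that of Sema3c was nearer to that of Nrp2 than to those of Sema3a and Sema3d. Sema3c and Nrp2 had GC-rich windows (78.4% and 72.4% G or C) with 3 and 5 GC boxes, and Nrp2 also held the TCF/LEF letters once. Sema3a and Sema3d had 40.8% and 46.8%. The Sema3a window, which starts inside the annotated span of the gene, held the RUNX letters once, and the Sema3d window held none of the 6 motifs. Among 32851 promoter windows of the same length, 32.7% held a GC box, 14.0% the RUNX letters, 12.4% the TATA box, 6.75% the AP-1 letters, 3.20% the MEF2 letters and 3.21% the TCF/LEF letters. For 26 of the 31 members a window was found, 37 windows in all, of which 27 held a GC box, 5 the RUNX letters, 3 the AP-1 letters, 1 the MEF2 letters, 1 the TCF/LEF letters and 0 the TATA box. A match describes the letters and is no binding site.

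No member passed limma's test over all genes at an adjusted p under 0.05, and neither did any other gene (0 higher and 0 lower, 0% in each direction, against 712 higher and 628 lower at an unadjusted p under 0.05). The adjusted p of the members lay between 0.734 and 1. At an unadjusted p under 0.05, 1 member was higher (Sema7a), beside 3.07% of all named genes, and 2 were lower (Sema3a and Sema3c), beside 2.71%. By size, 1 member was at least 2-fold higher with no overlap between clones (Sema7a, background 0.867%) and 3 were at least 2-fold lower (Sema3a, Sema3c and Sema3d, background 0.983%). Without regard to size, 4 were higher without overlap (Nrp2, Plxna1, Sema4b and Sema7a, background 8.26%) and 4 lower (Sema3a, Sema3c, Sema3d and Sema3f, background 7.75%). The median difference of the 31 members was 0, as over all named genes. The same shares were taken among the 7807 genes with a mean of 6 or more over the 5 clones, which hold 14 members and leave out Sema7a. There 0 members were higher and 2 lower at an unadjusted p under 0.05, beside 4.38% and 5.21% of these genes. At least 2-fold apart without overlap were 0 higher (background 1.37%) and 3 lower (background 1.59%). Of the lower ones, Sema3c and Sema3d lie just inside the limit and reach it only through the low-SOST clones. Their means were 4.59 and 5.36 in the high-SOST clones and 7.06 and 6.51 in the low-SOST clones. The lower counts in this set thus hold members that passed through the group where they are high, and are no separate support. Without regard to size, 3 were higher without overlap (background 12.9%) and 4 lower (background 13.5%).

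**Figure D1:**
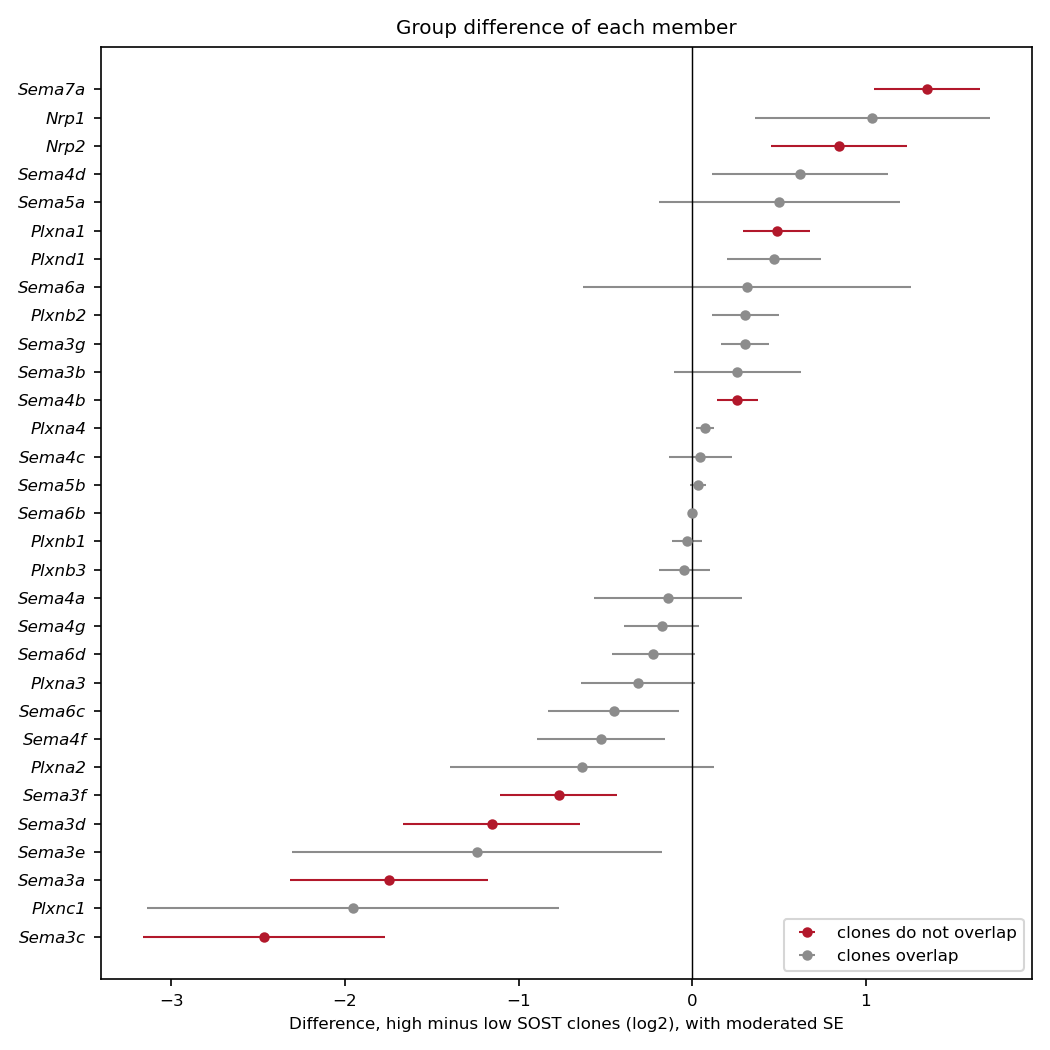
Difference between the mean of the 2 high-SOST and the mean of the 3 low-SOST clones (log2, x axis) for each of the 31 members, with bars for the moderated standard error and red points for members whose clones do not overlap. Sema3c, at -2.47, and Sema7a, at 1.35, lie at the ends, and 8 members are red.

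Among the secreted ligands, 5 of 7 class 3 semaphorins had a difference below 0, beside 10572 of all 23185 named genes. The class median was -1.15, against 0 over all named genes. Of the 7, 4 lie in 1 stretch of chromosome 5, described below. Sema3a had levels of 6.89 (12H), 6.39 (15H), 8.66 (4L), 7.47 (9L) and 9.02 (24L). Both high-SOST clones lay below all 3 low-SOST clones, with 0.58 between the nearest pair. The means were 6.64 ± 0.36 (SD, n = 2) and 8.39 ± 0.81 (SD, n = 3), 3.35-fold apart (difference -1.75, SE 0.57, limma adjusted p = 0.737).

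Sema3c, a ligand of both neuropilins that takes part in heart outflow and vessel development, read 3.94 in 12H, 5.24 in 15H, 7.40 in 4L, 6.13 in 9L and 7.63 in 24L. It had the widest gap of the family, 5.52-fold (difference -2.47, SE 0.70, limma adjusted p = 0.737), between 4.59 ± 0.92 (SD, n = 2) and 7.06 ± 0.81 (SD, n = 3). The 12H value lay above the receptor-gene level of 3.37 to 3.56 but close to it, so the size of the gap is not exact. Clone 9L was the lowest of the low-SOST clones for both Sema3a and Sema3c, and 24L the highest.

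Sema3d gave 5.91 (12H), 4.80 (15H), 6.16 (4L), 6.27 (9L) and 7.11 (24L). The clones did not overlap, but 12H lay 0.25 under 4L while 15H lay further down, and the difference of -1.15 (SE 0.51, limma adjusted p = 0.737) was -0.60 without 15H. Sema3f, a ligand that acts chiefly through neuropilin 2, read 6.16 and 6.68 in 12H and 15H and 7.69, 6.95 and 6.94 in 4L, 9L and 24L. It too had no overlap, at a smaller gap of 1.70-fold (difference -0.77, SE 0.34, limma adjusted p = 0.737).

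Sema3e, the plexin D1 ligand, read 3.48 in 12H, 5.37 in 15H, 6.78 in 4L, 4.27 in 9L and 5.95 in 24L. Here 9L lay below 15H, so the groups overlapped. Clone 12H was not above the receptor-gene level, so its distance from the other clones is a bound. The difference was -1.24 (SE 1.07), with a range from -2.19 without 15H to -0.29 without 12H. Sema3b, a ligand studied as a tumour suppressor, read 6.51 and 5.63 against 5.80, 6.13 and 5.49 in 4L, 9L and 24L, with 12H highest and the other clones mixed (difference 0.26, SE 0.37). Sema3g read between 4.08 and 4.66 in every clone (difference 0.30, SE 0.14).

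**Figure D2:**
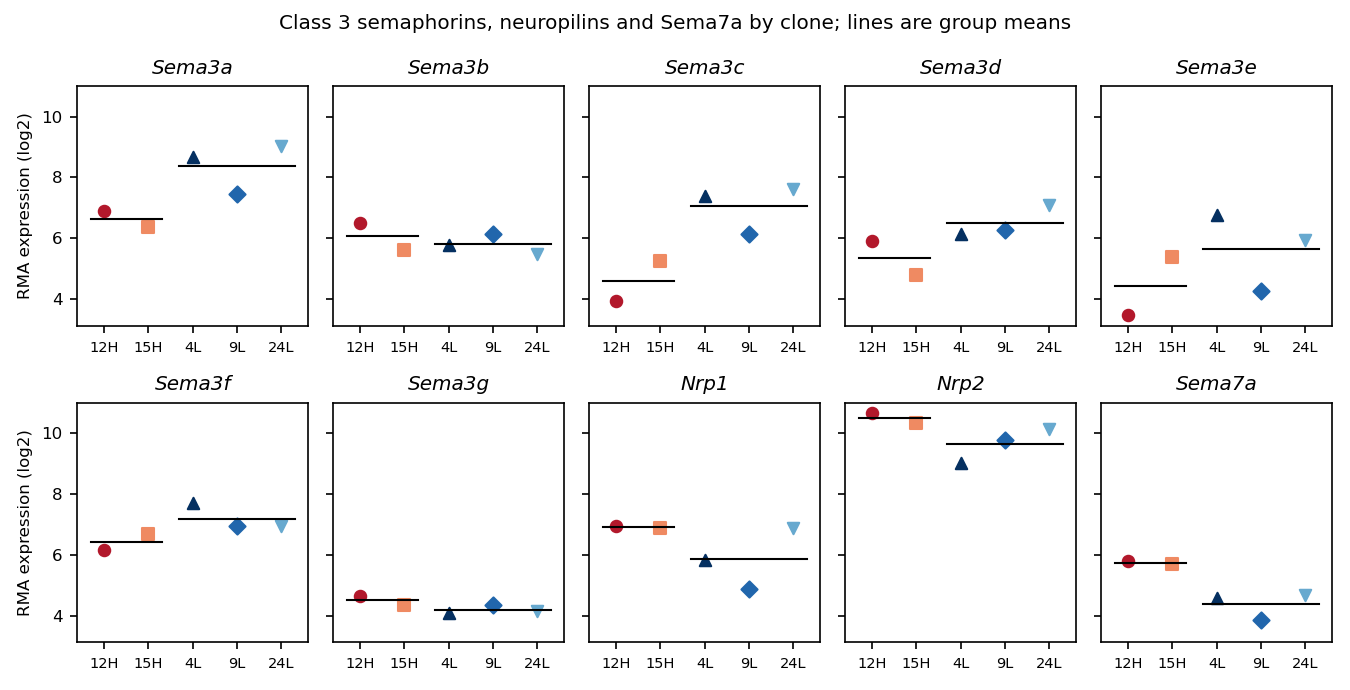
RMA expression (log2, y axis) of the 7 class 3 semaphorins, both neuropilins and Sema7a in each clone, with high-SOST clones in red shades on the left of each panel, low-SOST clones in blue shades on the right, and lines at the group means. Sema3a, Sema3c, Sema3d and Sema3f lie lower in both high-SOST clones, and Nrp2 and Sema7a higher.

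Among the members, 4 share chromosome 5. In annotation order Sema3d, Sema3a, Sema3e and Sema3c span a stretch of 23 named genes, which holds the 3 members at least 2-fold lower without overlap. Sema3d and Sema3a are adjacent in that order, and Sema3c is at the far end. Their promoter windows start at bases 12382916 (Sema3d), 13396534 (Sema3a) and 17574566 (Sema3c). Of the 19 other genes of the stretch, 17 stayed below 6 in every clone, their median difference was 0.05, and 1 was at least 2-fold lower without overlap. This was Cacna2d1, a calcium channel subunit named after its values were seen, which read 4.11 and 2.51 in 12H and 15H and 6.39, 4.51 and 5.80 in 4L, 9L and 24L (difference -2.25, SE 0.84). Its value in 15H lies under the receptor-gene level, so the size of that difference is not exact. The shift of chromosome 5 as a whole, taken as a clone's median deviation over its brighter genes there, lay between -0.16 (9L) and 0.10 (4L). Sema3f lies on chromosome 9.

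**Figure D3:**
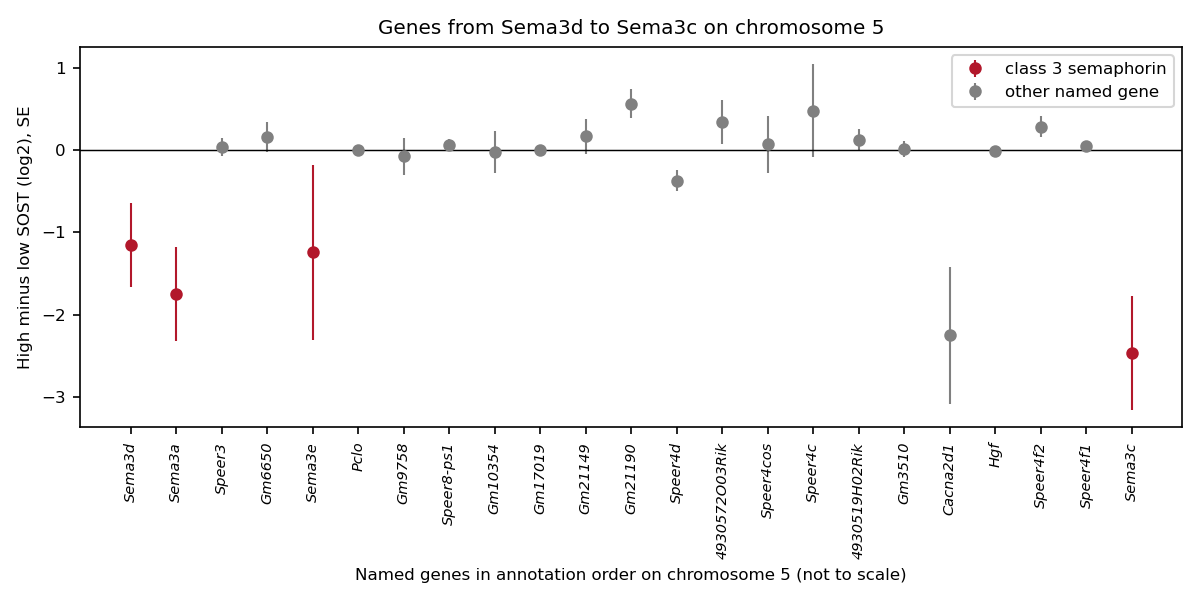
Difference between high-SOST and low-SOST clones (log2, y axis, bars are the moderated standard error) for the 23 named genes from Sema3d to Sema3c in annotation order (x axis, not to scale). The 4 class 3 semaphorins, in red, and Cacna2d1 lie below -1, and the other 18 genes lie between -0.37 and 0.57.

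The neuropilins, which present class 3 semaphorins to plexins and also bind vascular endothelial growth factors, both had means above those of the low-SOST clones. Nrp2 gave 10.65 (12H), 10.34 (15H), 9.03 (4L), 9.78 (9L) and 10.14 (24L). The clones did not overlap, though 15H exceeded 24L by 0.20 only. Its mean was 10.50 ± 0.22 (SD, n = 2) against 9.65 ± 0.57 (SD, n = 3). The gap was 1.80-fold (difference 0.85, SE 0.39, limma adjusted p = 0.737). Nrp1 read 6.93 and 6.87 in 12H and 15H and 5.82, 4.88 and 6.89 in 4L, 9L and 24L. Clone 24L lay level with the high-SOST clones, and 4L and 9L lay below (difference 1.04, SE 0.68). Without 24L the difference was 1.55, and without 9L it was 0.55.

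Of 9 plexins, 1 was higher without overlap (Plxna1) and 0 lower, beside 8.26% and 7.75% of all named genes. Plxna1, a receptor used with neuropilins and by class 6 semaphorins, read 7.39 and 7.08 against 7.00, 6.54 and 6.70 in 4L, 9L and 24L, where 15H exceeded 4L by 0.07 (difference 0.49, SE 0.19). Plxna2 read 5.51 and 5.91 in 12H and 15H and 5.27, 6.27 and 7.50 in 4L, 9L and 24L. It stood highest in 24L and lowest in 4L, both low-SOST clones. Plxna3 read 5.68 and 6.35 against 6.16, 6.08 and 6.74, with no order by group (difference -0.31, SE 0.33). Plxna4 lay under the receptor-gene level in every clone, at 3.18 to 3.32.

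Among the receptors of class 4 semaphorins, Plxnb2 read 9.44 and 9.52 in 12H and 15H and 9.07, 9.49 and 8.95 in 4L, 9L and 24L, a span of 0.56 over the 5 clones. Plxnb1, the receptor through which Sema4d acts on osteoblasts, read between 4.23 and 4.44 in every clone, and Plxnb3 between 2.75 and 3.18, under the receptor-gene level. Plxnd1, the receptor of Sema3e, read 7.01 in 12H, 6.23 in 15H and 9L, 6.09 in 4L and 6.13 in 24L. It thus set 12H apart rather than the SOST groups. Sema3e and Plxnd1 were opposite in 12H, which was the lowest clone for the ligand and the highest for the receptor, in single arrays.

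Plxnc1, the plexin that binds Sema7a, had the widest range of readings in the family. It read 3.20 in 12H, 4.32 in 15H, 3.85 in 4L, 6.16 in 9L and 7.12 in 24L. Clone 4L lay between the high-SOST clones, so the groups overlapped (difference -1.95, SE 1.19). The difference ran from -2.88 without 4L to -1.25 without 24L. Clone 12H lay under the receptor-gene level, so neither the range nor the difference is an exact size.

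Sema7a, which also signals through integrin beta 1 and is known in immune cells and axon growth, gave 5.79 (12H), 5.69 (15H), 4.59 (4L), 3.87 (9L) and 4.69 (24L). All low-SOST clones lay below both high-SOST clones, with 0.999 between the nearest pair. The means were 5.74 ± 0.07 (SD, n = 2) and 4.38 ± 0.45 (SD, n = 3), 2.56-fold apart (difference 1.35, SE 0.30, limma adjusted p = 0.734), the smallest p of the family. Itgb1, its integrin receptor subunit, read 10.72 and 10.40 against 10.20, 9.99 and 10.25 in 4L, 9L and 24L (difference 0.41, SE 0.14). Ligand and integrin were thus higher in both high-SOST clones while the plexin was not, and none of these differences passed.

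The transmembrane semaphorins had small differences. Sema4d read 6.70 and 6.93 in 12H and 15H and 6.94, 6.19 and 5.45 in 4L, 9L and 24L, so 4L lay level with the high-SOST clones (difference 0.62, SE 0.51). Sema4b read 6.31 and 6.46 against 6.16, 6.26 and 5.95, without overlap but with 0.05 between 12H and 9L (difference 0.26, SE 0.12). Sema4c, a ligand of plexin B2, read 6.71 in both high-SOST clones and 6.39, 6.92 and 6.69 in 4L, 9L and 24L. Sema4a, known in immune cells, ranged from 3.89 to 5.13 with its highest value in 9L. Sema4f ranged from 3.37 to 4.71, again highest in 9L, and Sema4g from 3.23 to 3.85.

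Sema5a, a ligand with thrombospondin repeats that can bind plexin B3, read 5.94 and 6.20 in 12H and 15H and 5.86, 4.42 and 6.41 in 4L, 9L and 24L. Clone 9L stood apart from the other 4, and without it the difference of 0.50 (SE 0.70) became -0.07. Sema5b read 4.01 to 4.11 in every clone. Among class 6 ligands of class A plexins, Sema6c read 4.98 and 5.60 against 6.26, 5.60 and 5.36, with 4L highest (difference -0.45, SE 0.38). Sema6a ranged from 3.00 in 4L to 5.30 in 12H, with 3.51 in 15H, and neither 4L nor 15H was above the receptor-gene level. Sema6b gave the same value, 4.01, on all arrays, and Sema6d ranged from 2.97 to 3.63.

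**Figure D4:**
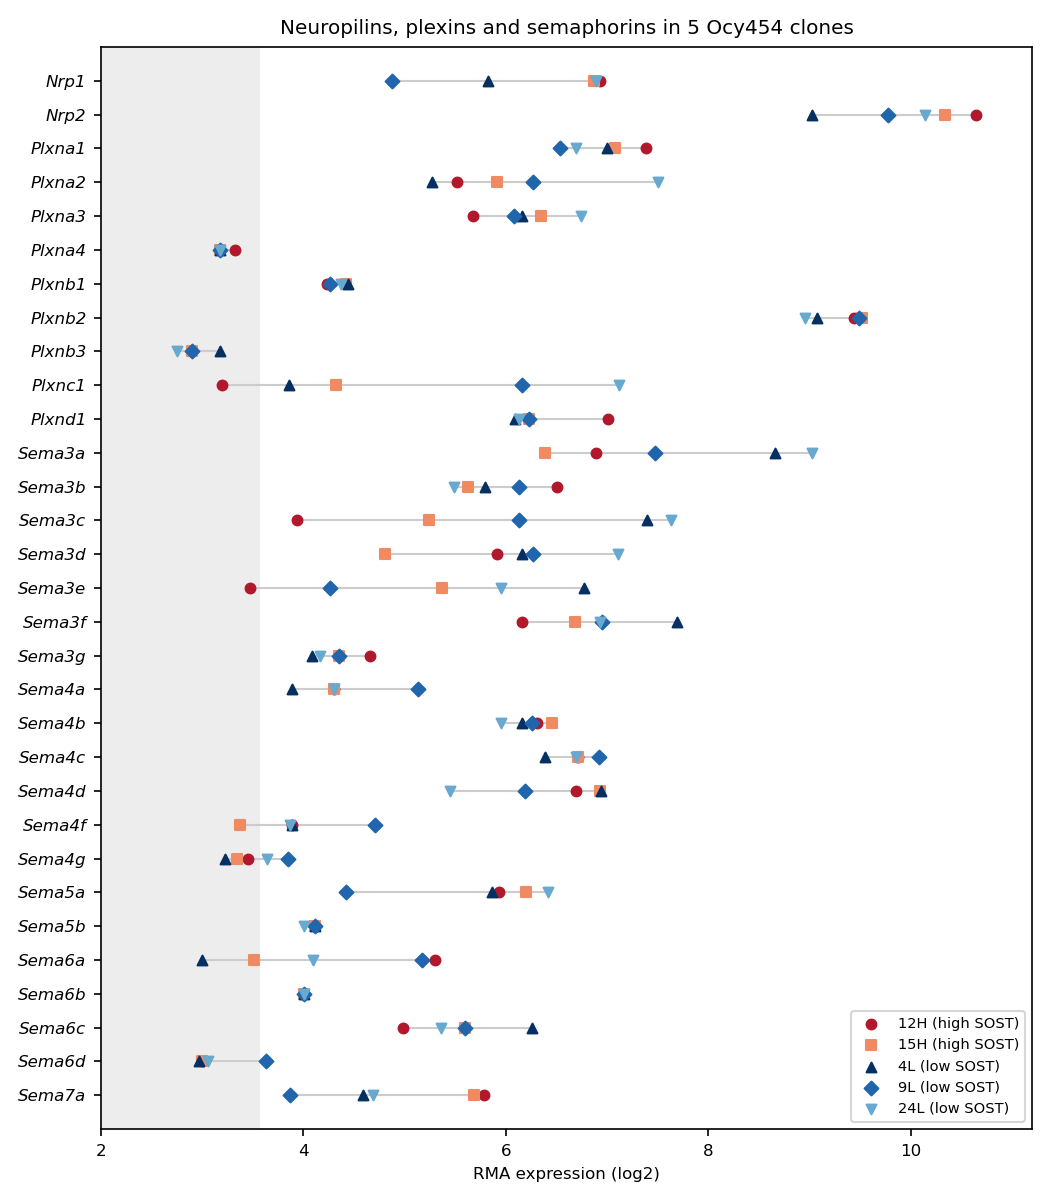
RMA expression (log2, x axis) of each of the 31 members in the 5 clones, 1 symbol per clone (red shades high SOST, blue shades low SOST); grey lines join the lowest and the highest clone, and the shaded band ends at 3.56, the highest 95th percentile of receptor genes over the clones. Levels are not comparable between genes. Plxnc1 and Sema3c have the widest lines, and Sema6b has a single value.

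Variation between clones was wide whatever their label. The highest and lowest clone were at least 2-fold apart for 18 of 31 members (58.1%), beside 11.7% of all named genes, and at least 4-fold for 8 (25.8%), beside 2.98%. Among genes with a mean of 6 or more the backgrounds were 17.2% and 3.84%, against 9 and 5 of the 14 members in that set. All class 3 semaphorins except Sema3g spanned at least 2-fold, as did both neuropilins, 3 of 9 plexins and 0 of the 3 class B plexins. Clone 24L was the highest for 7 of the 18 and clone 15H for 0. These 2 counts were not taken over all genes, so they describe the members only. The low-SOST clones alone spanned at least 2-fold for 11 members, beside 6.63% of all named genes, and 12H and 15H were at least 2-fold apart for 5 (Plxnc1, Sema3c, Sema3d, Sema3e and Sema6a), beside 1.98%. Among genes with a mean of 6 or more, these counts were 6 (background 9.53%) and 2 (background 2.25%). For Plxnc1, Sema3e and Sema6a the lower of 12H and 15H was not above the receptor-gene level. For Sema3d and Sema6a 12H was the higher of the 2, and for Sema3c, Sema3e and Plxnc1 15H was.

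**Figure D5:**
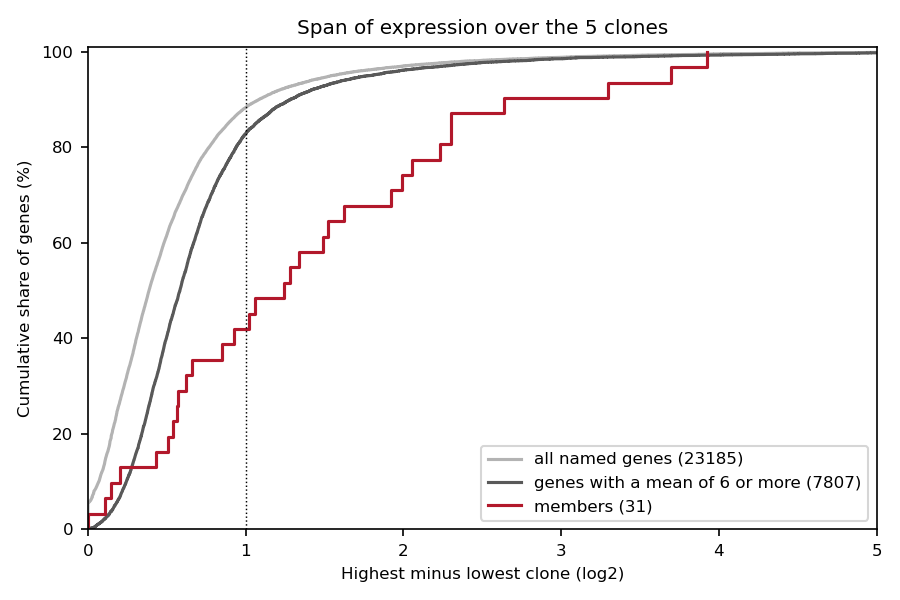
Cumulative share of genes (%, y axis) by the gap between the highest and the lowest of the 5 clones (log2, x axis), for the 31 members in red, the 7807 genes with a mean of 6 or more in dark grey and all 23185 named genes in light grey; the dotted line marks a 2-fold gap. Beyond the dotted line lie 18 of 31 members, and there the red line runs under both grey lines up to a gap of 3.92, the span of Plxnc1.

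Of 61 listed partners outside the family (other receptors, cytoplasmic effectors and proteases that release membrane semaphorins), 58 were measured and 0 passed over all genes in either direction. At an unadjusted p under 0.05, 3 were higher (background 3.07%) and 1 lower (background 2.71%). The median difference of the 58 was 0.04. Without overlap 11 were higher (background 8.26%) and 3 lower (background 7.75%). The 11 include Nrcam, which lay under the receptor-gene level at 1.95 to 2.19. Of the 58, 37 had a mean of 6 or more, and the backgrounds among all genes of that level were 12.9% and 13.5%. The counts of 11 and 3 are over all 58 and were not taken among the 37, so they cannot be set against those 2 shares. Mmp14, a membrane protease that can release Sema4d, read 10.67 and 10.51 against 9.99, 10.12 and 10.16 in 4L, 9L and 24L (difference 0.50, SE 0.08). Mical3, of a family of actin-oxidising enzymes that act below plexins, read 7.98 and 6.87 against 6.16, 6.04 and 5.92 (difference 1.39, SE 0.38). Rras, a small GTPase that plexins switch off, read 8.18 and 8.63 against 9.63, 9.48 and 9.00 (difference -0.97, SE 0.27). Met, a receptor kinase that can pair with class B plexins, read 4.81 and 5.16 against 7.31, 5.84 and 5.71 (difference -1.30, SE 0.61). In these 4 genes the clones did not overlap, and limma's adjusted p lay between 0.602 for Mmp14 and 0.737.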

How the data were processed

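Expression was measured on 1 Affymetrix array for each of 5 clones. The values were deposited by the authors as log2 expression per probe set; the submitters' processing notes name RMA, R 2.15.1 and affy 1.36.1 without saying what each did. Which chip definition, filters or build were used is not stated by these sources. RMA brings arrays to 1 distribution, which removes a shift shared by most genes, and its median-based summary repeats values: 12969 of 23185 named rows hold a value found on more than 1 array.

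Of 25206 rows, 23185 have 1 gene in the platform table, 0 have several and 2021 have none and were left out. Symbols were updated by Entrez number through RefSeq (GRCm38.p6), all matched, and promoter sequences are RefSeq's. Each gene was fitted with limma 3.58.1 in R 4.3.3 (high minus low SOST, lmFit and eBayes without trend, 3 residual degrees of freedom, prior 0.70), two-sided, and p-values were adjusted by Benjamini-Hochberg across 23185 genes. With 2 and 3 clones, the smallest p of an exact permutation test is 0.1. Each array is a different clone with no repeat culture named, so p-values measure the spread between these clones. Alternatives were other normalizations, variance models, a filter on dim genes and each clone left out. The fit was tested on simulated data. Shares of genes past a rule stand in for tests of the list.

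The members, lists and rules were chosen with earlier results of these data known. Every member is named; those with a clone at 6 or more, an unadjusted p under 0.05 or a 2-fold gap without overlap are given clone by clone and the others by range. Of the partners, the 2 with the smallest p per direction are named, and Itgb1 as a receptor of Sema7a. Backgrounds among genes with a mean of 6 or more and the neighbours on chromosome 5 were added after seeing the data. Plots used Python 3.11.15 and matplotlib 3.10.9.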

Additional observations from a re-analysis of the deposited data

How the results depend on the processing

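No member passed limma's adjusted threshold under any alternative. With both high-SOST clones kept, the lowest limma adjusted p of a member was 0.360, for Sema7a with chromosome medians subtracted. Over all genes, against 0 passing, 2 passed with arrays shifted to 1 median and 2 with chromosome medians subtracted, 1 in an unmoderated model and 3 at an adjusted p under 0.1. With chromosome medians subtracted, 3 members were higher and 4 lower at an unadjusted p under 0.05 (4.18% and 3.43% of all genes). Without overlap, 9 were then higher, among them Sema6b, and 5 lower, the last without Sema3f (12.9% and 9.83% of all genes). Sema6b read the same on all arrays before the subtraction, so its separation comes from the subtraction alone. In that setting 2 partners were lower at an unadjusted p under 0.05, and the unmoderated model gave 1 lower member. A 4-fold limit left 8 members by span. With each clone left out in turn, members with an unadjusted p under 0.05 numbered 0 to 2 higher and 0 to 2 lower, those 2-fold apart without overlap 1 to 4 higher and 2 to 5 lower, those without overlap 5 to 10 higher and 4 to 9 lower, and partners with such a p 1 to 9 higher and 0 to 5 lower. With fewer clones, groups separate more easily by construction, and a lone high-SOST clone was given the spread of the low-SOST group. Shares over all genes are not given for the fits with a clone left out. The counts from those fits thus have no background and cannot be read as a trait of the members or partners.

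Sema3a, Sema3c and Sema7a stayed 2-fold apart without overlap in 13 of 13 alternatives and Sema3d in 11, failing without 15H (-0.60) and without 24L (-0.86). Their differences with a clone left out ran from -2.20 to -1.43 (Sema3a), -3.12 to -1.81 (Sema3c) and 1.10 to 1.51 (Sema7a). The filter on dim genes, the fits with a variance trend and the unmoderated model leave a member's difference and overlap unchanged. Those alternatives could therefore alter neither the 2-fold separation nor the direction of a difference. Leaving out a clone cannot create an overlap, so there only the 2-fold limit could fail. Of 403 member differences under alternatives, 388 did not reverse. Among them are those of Sema6b, whose main difference was 0, and those of Plxna4 without 12H and Sema5b without 24L, which became 0. The other 15 reversed, in 10 members with main differences of at most 0.50, and the cause was not tested. With chromosome medians subtracted these were Plxna4 (-0.071), Plxnb1 (0.094), Plxnb3 (0.13), Sema4c (-0.0085) and Sema5b (-0.085). With a clone left out the ranges crossed 0 for Plxna3 (-0.65 to 0.023), Plxnb1 (-0.12 to 0.064), Plxnb3 (-0.14 to 0.075), Sema3b (-0.18 to 0.70), Sema4a (-0.41 to 0.21), Sema4c (-0.093 to 0.18), Sema5a (-0.069 to 0.93) and Sema6a (-0.58 to 1.21). Signal over background limits Plxna4, Plxnb3 and the other members that stayed below 6, and the low clones of Plxnc1, Sema3c, Sema3e and Sema6a. No paired analysis was possible because the clones share no replicate number.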
